A study of Mus musculus with 10 samples.

Results

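The 39 genes described here encode the motile cilium and its axoneme, and each was found in the deposited count table by matching its mouse symbol to an Ensembl gene identifier, for 39 of 56884 rows. They were followed in bulk RNA-seq of hippocampus from 10 female P301S (PS19) mice, which carry a human 1N4R Tau transgene with the P301S mutation driven by the mouse Prnp promoter. All mice had intact ovaries. At 6 months of age 5 of them received a subcutaneous SILASTIC implant with 10 mm of dihydrotestosterone (DHT) powder, an androgen that aromatase cannot turn into estrogen, and the other 5 received an empty implant (void). Hippocampi were taken after 12 weeks, at 9 to 9.5 months, with 1 library per mouse. The comparison asks how DHT changed the hippocampal transcriptome of females with tauopathy, and no mice without the Tau transgene were among these libraries.

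Motile cilia beat by sliding 9 outer microtubule doublets of the axoneme against each other around a central pair, powered by rows of outer and inner dynein arms. In the brain, ependymal cells that line the ventricles carry tufts of such cilia and move cerebrospinal fluid, and epithelial cells of the neighbouring choroid plexus are multiciliated as well. Most neurons and astrocytes instead carry a solitary primary cilium without dynein arms, which shares the transport machinery but not the beating apparatus.

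RFX factors bind X-box motifs near the start of many ciliary genes. RefSeq promoter windows (GRCm38.p6, 250 bases before to 50 after each start) were therefore searched on both strands for GTTGCC. These letters are only 1 part of an X-box, called the core below, and whole X-boxes were not searched for. Of the 39 genes, 34 had a promoter entry, and 14 of these (41.2%) held the core, against 3821 of 27025 genes (14.1%) overall. With the longer letters GTTGCCA, which contain the core, the counts were 7 of 34 (20.6%) and 1358 of 27025 (5.02%). The forkhead letters GTAAACA were found for 1 of 34 genes (2.94%), Cfap43, and for 1095 of 27025 (4.05%) overall. Shown here are the 150 bases before the start of 7 genes chosen after their values were seen, with GTTGCC or its reverse complement GGCAAC in capitals: 5 genes that hold the core, all with log2 fold changes above the median of the 39, Drc1 as a gene that hardly differed between the groups but also holds it, and Drc7 as the gene with the largest difference, which has none in this window.
Spag16 (chr1:69826820-69826969, plus strand): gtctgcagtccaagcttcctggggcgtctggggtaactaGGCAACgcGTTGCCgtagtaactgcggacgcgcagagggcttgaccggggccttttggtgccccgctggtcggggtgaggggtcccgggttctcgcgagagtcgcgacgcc
Tekt1 (chr11:72361883-72362032, minus strand): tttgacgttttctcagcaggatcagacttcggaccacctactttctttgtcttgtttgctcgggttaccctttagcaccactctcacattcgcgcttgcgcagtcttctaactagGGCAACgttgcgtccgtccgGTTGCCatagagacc
Cfap44 (chr16:44394649-44394798, plus strand): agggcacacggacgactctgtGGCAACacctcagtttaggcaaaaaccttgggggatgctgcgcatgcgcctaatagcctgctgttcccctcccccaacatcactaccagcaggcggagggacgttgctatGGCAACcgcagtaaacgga
Dynlrb2 (chr8:116504865-116505014, plus strand): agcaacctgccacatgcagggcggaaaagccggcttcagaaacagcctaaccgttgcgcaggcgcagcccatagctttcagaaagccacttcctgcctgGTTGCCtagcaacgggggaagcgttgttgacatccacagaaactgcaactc
Hydin (chr8:110266827-110266976, plus strand): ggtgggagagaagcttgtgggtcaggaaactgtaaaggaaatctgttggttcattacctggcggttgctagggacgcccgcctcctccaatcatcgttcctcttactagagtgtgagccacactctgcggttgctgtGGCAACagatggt
Drc1 (chr5:30281243-30281392, plus strand): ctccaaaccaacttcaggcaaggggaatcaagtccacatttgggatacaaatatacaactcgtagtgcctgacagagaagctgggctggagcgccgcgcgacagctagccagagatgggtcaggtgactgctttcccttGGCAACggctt
Drc7 (chr8:95054953-95055102, plus strand): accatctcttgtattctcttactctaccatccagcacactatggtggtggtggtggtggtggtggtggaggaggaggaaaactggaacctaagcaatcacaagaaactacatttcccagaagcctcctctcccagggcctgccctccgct
In Spag16 the 2 cores lie on opposite strands 111 and 103 bases before the start, and in Tekt1 they lie 35 and 15 bases before it. Tekt1 has another RefSeq start whose window held 0 cores, and the start with the cores was the one shown. In Drc1 and Hydin the core was 11 and 13 bases before the start. Bases soon after the start occur unbroken in an annotated transcript of each gene shown except Drc7 and Dynlrb2. A first exon that ends within those bases would also break the match, so for Drc7 and Dynlrb2 this check does not decide the start. The 14 genes with a core had a median log2 fold change of 0.78 with DHT and 3 of them were called higher by the rule given next, while the 20 genes without it had a median of 0.44 and 5 were called. For the 5 genes with no promoter entry the median was 1.01, and 2 were called. Whether the core goes with the size of the difference was not tested. These letters describe the windows and do not show binding.

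The motile cilium genes were higher on balance in DHT-treated females. Counts were compared with edgeR's quasi-likelihood test across 17622 genes, and a gene was called if its adjusted p (Benjamini-Hochberg) was below 0.05 and its log2 fold change lay beyond 1. All 39 genes had enough counts to be tested. By this rule 10 were called higher and 0 lower, where 2.17% of all tested genes were called higher and 0.0227% lower. SE below is the standard error of a log2 fold change. Without the fold limit 14 passed the adjusted p, all higher with DHT, against 5.22% of all tested genes (0.261% passed it as lower). At an unadjusted p under 0.05, 27 of the 39 were higher, against 13.1% of all tested genes. A positive log2 fold change was found for 36 of 39 genes, against 52.4% of all genes, and the median was 0.65 against 0.01. For 12 genes the lowest DHT value exceeded the highest void value, which 5.39% of all tested genes showed. Expressed as CPM (counts scaled to a common library size after TMM normalization), the 39 genes summed to 194 to 347 in the void group and 359.9 to 527 in the DHT group, with means of 273.0 and 435. In bulk tissue, more ciliated cells and more RNA per cell cannot be told apart.

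**Figure D1:**
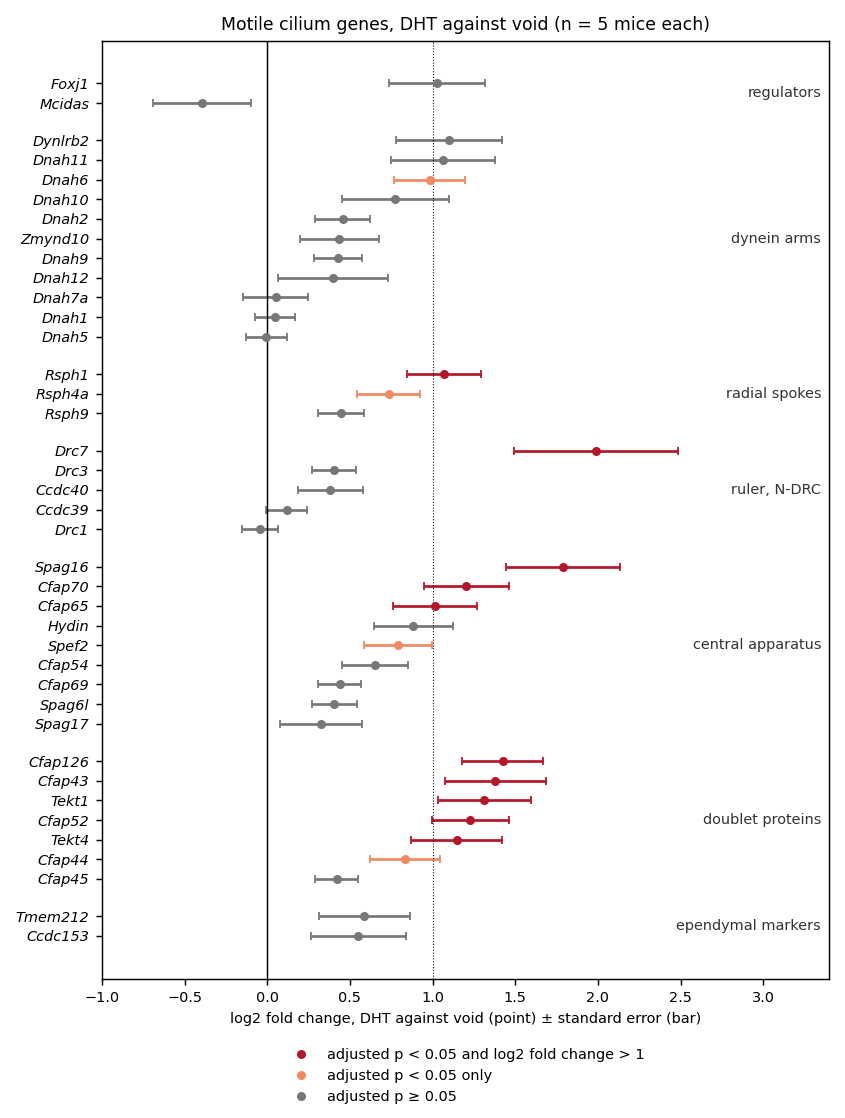
Log2 fold change of the 39 motile cilium genes, DHT against void, on the x axis (points; bars are the standard error, 5 mice per group), with genes grouped by role on the y axis and the dotted line at 1. Called genes (dark red) lie between 1.01 for Cfap65 and 1.99 for Drc7, genes of the doublet proteins lie furthest right as a group, and 5 genes of the dynein arm and the ruler and nexin-dynein groups lie close to 0.

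Genes of the choroid plexus, which adjoins the hippocampus and can be dissected with it, moved with the groups too. Summed CPM of 12 choroid plexus epithelium genes was 118 and 125 in void replicates 5 and 11. It was 464, 974 and 1937 in void replicates 10, 4 and 9, and 2231 to 3187 in the DHT group. None of the 12 genes was at 0, all 12 had a positive log2 fold change (1.63 to 2.69), and 4 were called higher, against 2.17% of all tested genes. Kl, Otx2 and Clic6, with the lowest p values of the list, had log2 fold changes of 1.85, 2.10 and 2.16 (adjusted p = 0.0321, 0.0349 and 0.0416, edgeR). With the choroid plexus score of each mouse as a covariate, 0 of 39 motile cilium genes were called, and 0 passed the adjusted p. In that fit the log2 fold change was positive for 26 of 39, and its median was 0.09. Of the 39, 2 had an unadjusted p under 0.05 (edgeR): Cfap126, at 0.60, and Dnah5, at -0.37. Among all 17622 genes tested 1243 did, and whether these shares differ was not tested. No void-treated mouse reached the choroid plexus sum of a DHT-treated mouse, so this fit sets treatment against a score that follows it.

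Total counts per library ranged from 27188854 to 47113661. Genes of the hippocampal subfields summed to 639 to 864 CPM in every library. No markers of other brain regions were set beside them, so this sum does not check the dissection. The S numbers in the library names run from 4 to 11 in the void group and from 18 to 23 in the DHT group, so anything tied to them and the treatment cannot be told apart. Neuronal genes had log2 fold changes of -0.21 to -0.06, astrocyte genes -0.04 to 0.41 and endothelial genes -0.11 to -0.02, with 0 of 5, 0 of 5 and 0 of 4 passing the adjusted p and 1, 2 and 0 at an unadjusted p under 0.05 (edgeR). The lowest p values in these lists were those of Map2, Aqp4 and Cldn5.

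Neither of the 2 regulators passed the adjusted p. Foxj1 (ENSMUSG00000034227) is the transcription factor that switches on motile cilium genes. Here and below, values are given in the order of void replicates 4, 5, 9, 10 and 11 and of DHT replicates 1, 2, 3, 5 and 6. Foxj1 was at 10.5, 6.97, 16.2, 9.63 and 3.74 CPM with void and at 21.2, 16.6, 16.5, 17.3 and 24.6 CPM with DHT. No void-treated mouse reached the DHT range, although void replicate 9 was close to the lowest of them. Means were 9.42 ± 4.62 and 19.2 ± 3.56 CPM (SD, n = 5 each), for a log2 fold change of 1.03 (SE 0.29) that missed the adjusted p (0.0662, edgeR's quasi-likelihood test). With void replicate 9 left out, Foxj1 had a log2 fold change of 1.31 and the adjusted p 0.0101, and that was the sole fit of the 10 with a mouse left out in which it was called. Across those fits its log2 fold change went down to 0.80 (without void replicate 11) and its adjusted p up to 0.163 (without DHT replicate 1). Mcidas (ENSMUSG00000074651), a coregulator that starts multiciliated cell differentiation, was barely present, with 7 to 18 counts per library. It was at 0.296, 0.479, 0.341, 0.332 and 0.539 CPM with void and at 0.355, 0.173, 0.272, 0.479 and 0.238 CPM with DHT. The groups overlapped, and the log2 fold change of -0.39 (SE 0.30, adjusted p = 0.580) was the lowest of the 39. Other early regulators on a list of 89 further motile cilium genes gave Gmnc 0.42, Trp73 0.78, Myb 0.72, Ccno 0.05, Deup1 0.32, Rfx2 0.43 and Rfx3 -0.13 on the log2 fold change scale, none past the adjusted p.

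Of the 11 genes for the dynein arms and their assembly, only Dnah6 passed the adjusted p, and 0 were called. Dnah9 (ENSMUSG00000056752), an outer arm heavy chain, had the most reads of the 39 genes. Its CPM was 31.6, 18.7, 31.4, 28.7 and 24.4 with void and 45.7, 31.2, 33.8, 33.9 and 37.1 with DHT. DHT replicate 2 fell just below the highest void mice, so the groups overlapped. The log2 fold change of Dnah9 was 0.43 (SE 0.14, adjusted p = 0.121). Dnah6 (ENSMUSG00000052861), an inner arm heavy chain, was at 12.3, 6.90, 17.9, 14.5 and 10.5 CPM with void and 31.6, 23.9, 24.9, 18.3 and 23.8 CPM with DHT. The groups did not overlap, but DHT replicate 5 lay just above void replicate 9, and the log2 fold change was 0.98 (SE 0.22, adjusted p = 0.0217). Dnah5, an outer arm heavy chain, and Dnah1, an inner arm heavy chain, had means of 14.3 ± 2.33 and 14.2 ± 1.75 CPM and of 10.5 ± 1.04 and 10.8 ± 1.83 CPM in void and DHT (SD, n = 5 each). Their log2 fold changes of -0.01 and 0.04 were within their SEs of 0.12. The third outer arm heavy chain, Dnah11, had a log2 fold change of 1.06 (SE 0.32, adjusted p = 0.0796), with overlapping groups. The inner arm heavy chains Dnah10, Dnah2 and Dnah12 had log2 fold changes of 0.77, 0.46 and 0.40, none past the adjusted p. Dynlrb2, a dynein light chain of the roadblock family, had a log2 fold change of 1.10 (SE 0.32, adjusted p = 0.0716), while Dynlrb1, its widely expressed relative in cytoplasmic dynein, was at 96.3 ± 6.72 CPM with void and 96.9 ± 4.26 CPM with DHT (SD, n = 5 each), which gave a log2 value of 0.01 (SE 0.06). Dync1h1, the heavy chain of cytoplasmic dynein, had a log2 fold change of -0.02 (SE 0.10). Zmynd10, which helps to assemble dynein arms in the cytoplasm, had a log2 fold change of 0.44 (SE 0.24, adjusted p = 0.403). Dnah7a had a log2 fold change of 0.05 (SE 0.20). Of its distinct 100-base stretches of transcript, 19.1% also occur in transcripts of other genes, mostly Dnah7c, so its reads may have been divided or dropped. Dnah7b rose by 0.87 on the log2 scale (SE 0.20, adjusted p = 0.0273), and Dnah7c had a value of 0.48 (adjusted p = 0.270).

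Radial spokes pass signals from the central pair to the dynein arms, and the 3 spoke head genes had log2 fold changes of 0.44 to 1.07. Rsph4a (ENSMUSG00000039552) was at 12.2, 9.36, 11.5, 7.71 and 6.41 CPM with void and 19.9, 17.0, 17.1, 11.6 and 13.1 CPM with DHT. DHT replicate 5 lay below void replicate 4, so the groups overlapped, and Rsph4a rose by 0.73 on the log2 scale (SE 0.19, adjusted p = 0.0445). Rsph9 (ENSMUSG00000023966) was at 8.86, 8.28, 12.3, 7.97 and 6.71 CPM with void and 11.8, 10.9, 11.8, 12.8 and 12.9 CPM with DHT. Only void replicate 9 reached the DHT range, and the log2 fold change of 0.44 (SE 0.14) missed the adjusted p at 0.0950. Rsph1 was the called gene of this group, with means of 5.74 ± 2.10 and 12.0 ± 1.78 CPM (SD, n = 5 each), groups that did not overlap and a log2 fold change of 1.07 (SE 0.22, adjusted p = 0.0173).

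The ruler proteins set the 96-nm repeat along each doublet, and the nexin-dynein regulatory complex links neighbouring doublets. This set held both the largest difference and some of the smallest. Drc7 (ENSMUSG00000031786), a subunit of that complex, was at 9.15, 3.26, 19.9, 3.76 and 2.28 CPM with void and 46.6, 27.2, 28.5, 21.5 and 29.5 CPM with DHT. The groups did not overlap, yet void replicate 9 reached 19.9 CPM against 21.5 in DHT replicate 5, and the void mice alone spanned 8.75-fold. Means were 7.67 ± 7.35 and 30.6 ± 9.42 CPM (SD, n = 5 each), for a log2 fold change of 1.99 (SE 0.50, adjusted p = 0.0380). With any mouse but void replicate 9 left out, the adjusted p of Drc7 was above 0.05, up to 0.111 without DHT replicate 1, at log2 fold changes of 1.73 to 2.06. It was also above 0.05, at 0.0571, with robust dispersion estimates. With void replicate 9 left out, Drc7 had a log2 fold change of 2.697. With the choroid plexus covariate it was 0.31. Ccdc39 (ENSMUSG00000027676), which forms the ruler with Ccdc40, was at 26.8, 26.5, 21.3, 22.6 and 21.8 CPM with void and 27.6, 26.8, 32.4, 21.8 and 20.3 CPM with DHT. The groups overlapped almost fully, and the log2 fold change of 0.12 was within its SE of 0.13. An antisense overlap with Ttc14 covers 16.9% of the exon length of Ccdc39, and the counting is not stated to use strand. Ccdc40, Drc3 and Drc1 had log2 fold changes of 0.38, 0.40 and -0.04, none past the adjusted p. Drc1 and Drc7 belong to the same complex, and at 10.3 ± 1.23 and 9.97 ± 1.09 CPM (SD, n = 5 each) Drc1 differed by less than its spread between mice.

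**Figure D2:**
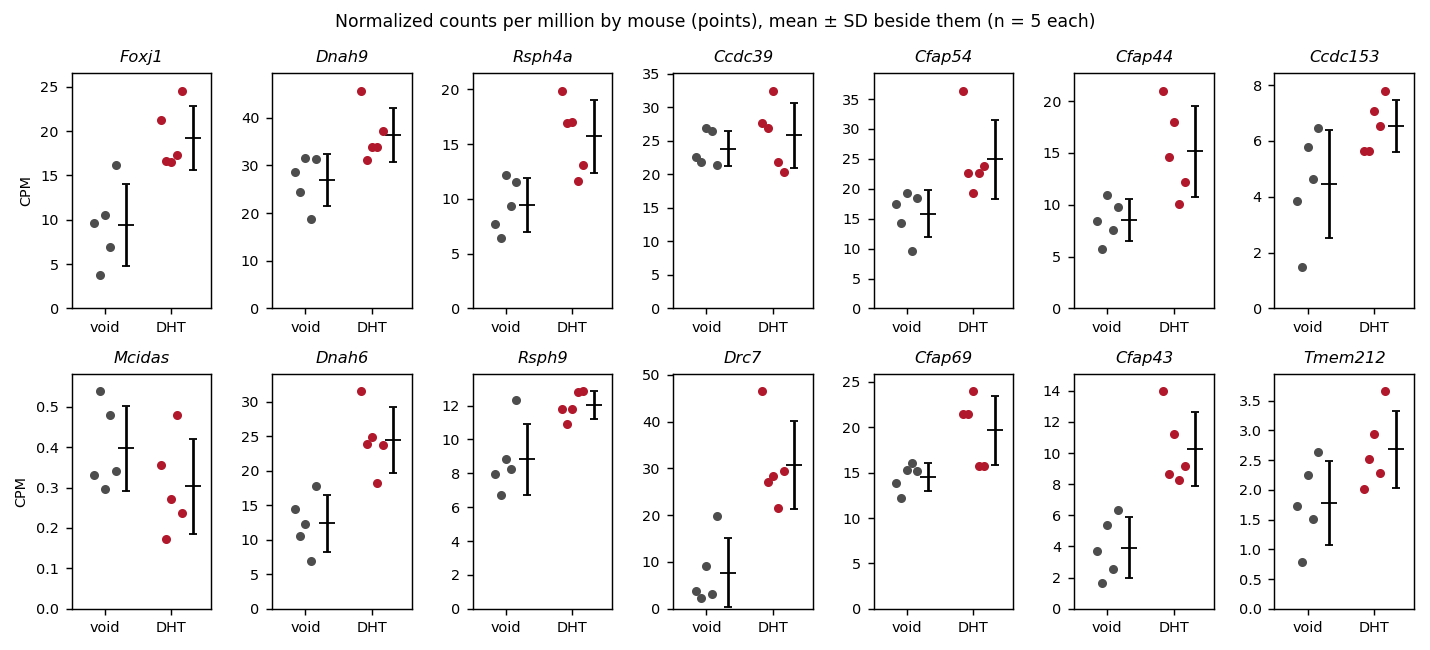
CPM (y axis) of the 2 genes with the highest mean CPM in each role group, for 5 void (grey) and 5 DHT (red) mice, with the mean and SD beside the points. Void and DHT points are apart for Foxj1, Dnah6, Drc7 and Cfap43, overlap by a few mice for most other genes, and overlap almost fully for Ccdc39 and Mcidas.

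The central apparatus is made up of the central pair of microtubules and their projections. All 9 of its genes had a positive log2 fold change (0.32 to 1.79), of which 4 passed the adjusted p and 3 were called. Cfap54 (ENSMUSG00000020014) was at 19.4, 9.68, 18.5, 17.4 and 14.3 CPM with void and 36.4, 22.6, 19.3, 22.6 and 23.8 CPM with DHT. Void replicate 4 and DHT replicate 3 were within 0.1 CPM of each other, and the log2 fold change of 0.65 (SE 0.20) missed the adjusted p at 0.0872. Cfap69 (ENSMUSG00000040473) was at 15.3, 16.04, 15.2, 13.9 and 12.2 CPM with void and 21.4, 21.4, 24.0, 15.7 and 15.7 CPM with DHT. DHT replicates 5 and 6 lay within the void range, and the log2 fold change was 0.44 (SE 0.13, adjusted p = 0.0782). Spag16, which is not among the genes of highest level and was picked out after its values were seen, had the second largest difference. It was at 2.77, 1.89, 4.13, 1.33 and 0.899 CPM with void and 10.9, 7.90, 8.17, 5.36 and 5.92 CPM with DHT. The groups were apart, with void replicate 9 the closest void mouse, and Spag16 rose by 1.79 on the log2 scale (SE 0.34, adjusted p = 0.0130). Cfap70, whose place in the mammalian axoneme is less settled, rose by 1.20 and Cfap65 by 1.01, and Spef2 passed the adjusted p at 0.79. Cfap65 fell to 0.99, under the fold limit, with DESeq2 and with its size factors in edgeR. Hydin, a large protein of a central pair projection, was higher in every DHT-treated mouse, and its log2 fold change of 0.88 (SE 0.24) missed the adjusted p at 0.0551. Spag6l and Spag17 had log2 fold changes of 0.41 and 0.32, neither past the adjusted p, and Spag6, the relative from which Spag6l takes its name, had -0.08 (SE 0.12).

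Proteins that tether dynein to the doublets or line their inside held 5 of the 10 called genes, with 5 of 7 called and 6 of 7 past the adjusted p, and a median log2 fold change of 1.23. Cfap44 (ENSMUSG00000071550), of the tether complex, was at 10.99, 7.54, 9.83, 8.41 and 5.78 CPM with void and 21.01, 14.7, 17.97, 10.1 and 12.2 CPM with DHT. DHT replicate 5 lay below void replicate 4, and Cfap44 rose by 0.83 on the log2 scale (SE 0.21, adjusted p = 0.0400). Cfap43 (ENSMUSG00000044948), its partner in that complex, was at 5.37, 2.56, 6.36, 3.69 and 1.65 CPM with void and 14.0, 8.64, 11.2, 8.26 and 9.14 CPM with DHT. The groups were apart, and Cfap43 rose by 1.38 (SE 0.31, adjusted p = 0.0228). Exons of Itprip on the same strand overlap Cfap43, and 0.923% of its 100-base stretches are shared with that gene. Cfap126, also known as Flattop, was picked out after its values were seen, as the gene with the lowest p of the 39. Its CPM was 2.49, 1.98, 3.72, 1.77 and 1.17 with void and 7.27, 5.90, 5.78, 4.85 and 6.19 with DHT, again without overlap. Cfap126 rose by 1.42 on the log2 scale (SE 0.25, adjusted p = 0.00980). Tekt1, Cfap52 and Tekt4, which line the inside of the doublets, rose by 1.31, 1.23 and 1.14, with adjusted p of 0.0200, 0.0121 and 0.0333. Tekt4 had only 9 to 63 counts per library, and its groups overlapped. Cfap45 had a log2 fold change of 0.42 (SE 0.13, adjusted p = 0.0916). Spag16, Cfap52 and Cfap126 were the 3 genes that stayed called whichever of the 10 mice was dropped. Under the same 10 fits Cfap70 and Tekt1 were called in 8, Rsph1 in 7, Cfap43 in 6, and Cfap65 and Tekt4 in 3. The highest adjusted p of these 6 genes lay between 0.0564 (Rsph1) and 0.117 (Cfap65), reached without DHT replicate 1 for all but Tekt4, whose highest value of 0.105 came without void replicate 11. Of the 4 genes past the adjusted p alone, Dnah6 passed it in 6 of the 10 fits, Rsph4a and Cfap44 in 4 and Spef2 in 2.

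Ccdc153 and Tmem212 are commonly used markers of ependymal cells, and neither passed the adjusted p. Ccdc153 (ENSMUSG00000070306) was at 5.79, 4.63, 6.45, 3.84 and 1.498 CPM with void and 5.63, 5.65, 7.06, 6.52 and 7.80 CPM with DHT. Void replicates 4 and 9 were within the DHT range, and the lowest value was that of void replicate 11. The log2 fold change of Ccdc153 was 0.55 (SE 0.29, adjusted p = 0.369). Tmem212 (ENSMUSG00000043164) was at 2.24, 1.502, 2.64, 1.73 and 0.779 CPM with void and 2.02, 2.52, 2.93, 2.27 and 3.66 CPM with DHT. The groups overlapped here too, at a log2 fold change of 0.59 (SE 0.28, adjusted p = 0.304). Without void replicate 11 the log2 fold changes of Ccdc153 and Tmem212 were 0.30 and 0.37. Of 4 ependymal genes outside the axoneme, Mia was near 0 and was not tested. Rarres2, Tm4sf1 and Cd24a had log2 fold changes of 0.44, 0.35 and 0.37 (adjusted p = 0.0565, 0.108 and 0.284).

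The mice of the void group differed more among themselves than those of the DHT group. The highest void mouse was more than 2-fold above the lowest for 24 of 39 genes, with a median ratio of 2.46, while in the DHT group this was so for 5 genes, with a median ratio of 1.598. Void replicate 9 was the highest void mouse for 24 genes and void replicate 4 for 13, and void replicate 11 was the lowest for 33. Void replicates 9 and 4 also had the highest choroid plexus sums of the void group. Void replicate 11 had the lowest summed CPM of the 39 genes, and void replicate 5, whose choroid plexus sum was as low, was the lowest for 4. In the DHT group, replicate 1 was the highest for 22 genes and also had the highest choroid plexus sum, and replicate 5 was the lowest for 21. Leaving out DHT replicate 1 brought the called genes from 10 to 3, and leaving out void replicate 9 brought them to 14. They numbered 5 without void replicate 5, 6 without void replicate 10, 6 without void replicate 11 and 5 without DHT replicate 3.

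**Figure D3:**
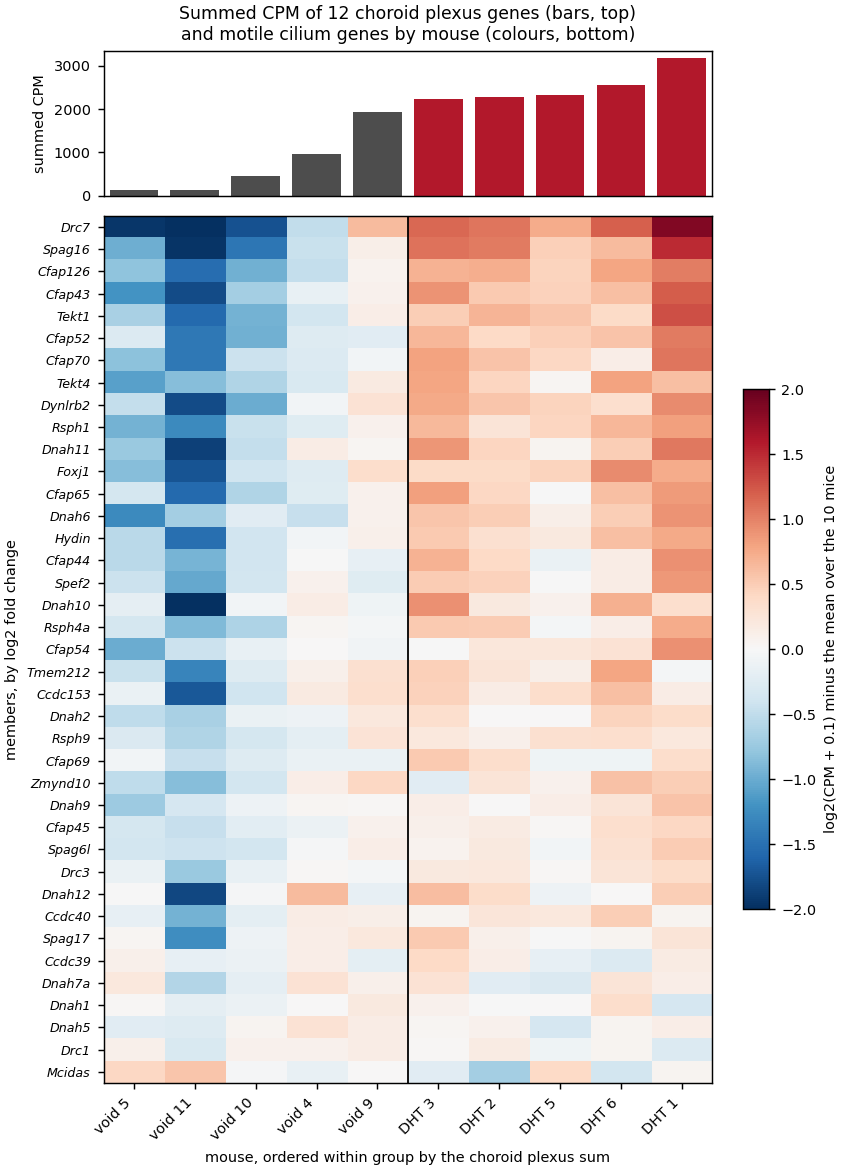
Bars show the summed CPM of 12 choroid plexus genes in each mouse, and colours show log2(CPM + 0.1) of each of the 39 genes minus its mean over the 10 mice, with mice ordered within their group by the bars and genes by log2 fold change. Rows at the top turn from blue in void replicates 5, 11 and 10 to near white in void replicates 4 and 9 and red in the DHT mice, while Ccdc39, Dnah7a, Dnah1, Dnah5 and Drc1 near the bottom show little of this.

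**Figure D4:**
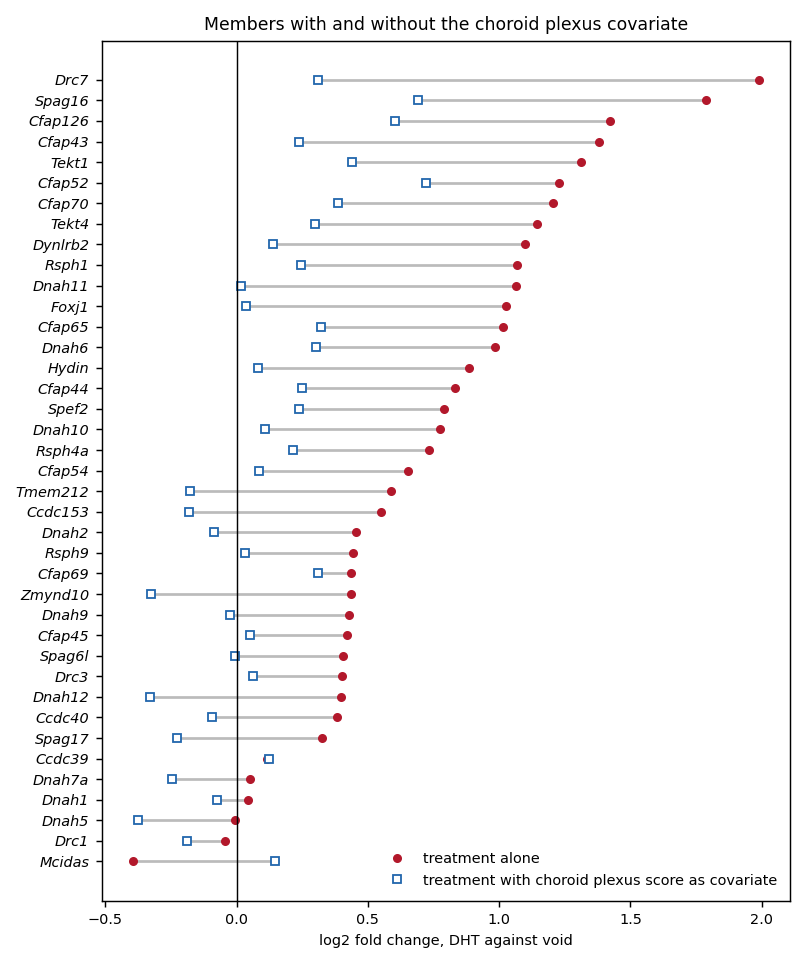
Log2 fold change of each of the 39 genes, DHT against void (x axis), fitted with treatment alone (filled circles) and with the choroid plexus score added to the fit (open squares). With the covariate the values lie between -0.37 for Dnah5 and 0.72 for Cfap52, and Drc7 moves from 1.99 to 0.31 while Ccdc39 stays at 0.12.

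Divided by the exon length of the gene model, levels in the void group ranged from 0.148 CPM per kb for Dnah7a to 5.51 for Rsph9. The value of Dnah7a may be too low, since part of its sequence is shared with other genes, so its place below Mcidas is not firm. Next below Rsph9 on that per-length scale were Rsph1 at 4.18, Drc1 at 3.84, Foxj1 at 3.59 and Ccdc39 at 3.20 CPM per kb. Mcidas and Spag17 were near the bottom, at 0.167 and 0.199. In CPM, the SD between void mice was 2.10 at a mean of 5.74 for Rsph1 and 4.62 at a mean of 9.42 for Foxj1. These genes were measured in the same mice, so such spreads do not show how firm their order is, and the order was not tested. In the DHT group Drc7 had the highest level per length, at 10.3 CPM per kb, where it had been at 2.57 in the void group, and Rsph1 followed at 8.78. Drc1 was at 3.72 CPM per kb with DHT.

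The rest of the motile cilium programme was read from 89 further genes, 85 of them with counts high enough for testing. Of these 7 were called higher and 0 lower, 19 passed the adjusted p, all higher, and 78 had a positive log2 fold change, with a median of 0.49. Over all tested genes 2.17% were called higher, 5.22% passed the adjusted p as higher and 52.4% had a positive log2 fold change. The lowest p values were those of Vwa3a, Ccdc113 and Cfap53. Vwa3a rose by 0.63 on the log2 scale (SE 0.10, adjusted p = 0.00800), Ccdc113 by 1.04 (SE 0.19, adjusted p = 0.0113) and Cfap53, which acts in dynein arm docking and doublet structure, by 1.54 (SE 0.29, adjusted p = 0.0122). Leaving out DHT replicate 1 left 2 called, leaving out void replicate 11 left 3, and leaving out void replicate 5, void replicate 10 or DHT replicate 3 left 4 each, while 11 were called without void replicate 9. Over all genes 175 were called higher without DHT replicate 1 and 513 without void replicate 9. With the choroid plexus covariate 0 of the 85 were called. Genes for intraflagellar transport and the primary cilium gave another picture. Of 40 tested, 0 were called in either direction and 0 passed the adjusted p in edgeR. DESeq2 called 0 as well, and 8 had an unadjusted p under 0.05 in edgeR, 3 higher and 5 lower. Their log2 fold changes ran from -0.37 to 0.22 with a median of 0.02, and 23 were positive and 17 negative. Kif17, a ciliary kinesin of neurons, had the lowest p of the list, at a log2 fold change of -0.37 (SE 0.11, adjusted p = 0.0749), ahead of Tulp3 at 0.22 and Kif3a at -0.12. Whether the motile cilium genes and these transport genes differ was not tested.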

How the data were processed

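The authors trimmed and filtered reads with HTStream, aligned them with STAR 2.7.10b and deposited raw counts per gene, 1 column per mouse, without normalization. The study's methods name mm10, and the submitters' processing notes name mm39 and GRCm39. The annotation release and the handling of strand and multiply mapped reads are not given in the sources used here. Symbols came from GENCODE M21 for 51948 of 56884 rows, with 35 sharing its version number, so M21 gave names, exon lengths and overlaps only, and coordinates are RefSeq's on GRCm38.p6.

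The analysis used edgeR 4.0.16 under R 4.3.3 (TMM, expression filter by group, quasi-likelihood test, Benjamini-Hochberg adjustment over all genes tested). DESeq2 1.42.0 was the alternative. Each SE is the absolute log2 fold change over the square root of F. Log2 CPM used a prior count of 2. The choroid plexus score is the mean z-score of 12 genes. Scripts were tested on simulated data. Genes given by mouse are the regulators and the 2 genes of highest mean CPM over all 10 mice in each role group. By void means alone Drc7, Dnah6 and Cfap43 would not be among them, so their separation is partly built into the choice. Of the choroid plexus, ependymal, meningeal, microglial, transport and further motile cilium lists, the 3 lowest p values are named, except 1 gene that is not reported here. For neurons, astrocytes and endothelium only the lowest is named. Regulators, Dnah7 relatives and relatives outside motile cilia were named for their kinship to the 39 genes. The genes and lists were chosen with earlier results of these data known. Libraries come from separate mice.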

Additional observations from a re-analysis of the deposited data

Results flagged for a closer look

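In 5 of 78 groups of 5 mice examined, for 39 genes in each treatment, a mouse stood apart from its group, where chance gives about 3.9. Its gap to the nearest mouse exceeded 0.71 of the range of log2 CPM. Void replicate 11 was lowest for Dnah10 (0.855 of the range), Drc1 (0.859), Drc3 (0.771) and Spag17 (0.784). DHT replicate 5 was lowest for Dnah5 (0.797). The genes share libraries, so the values of void replicate 11 are not independent.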

How the results depend on the processing

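No paired analysis was possible because the labels give no pairs or litters of mice. With the choroid plexus covariate 0 motile cilium genes were called and 0 passed the adjusted p, 0 of the further motile cilium genes were called, and the median log2 fold change of the 39 genes was 0.0853. The score moves with treatment, and the cause was not tested. With 1 mouse left out in turn, 3 to 14 of the 39 genes were called higher, 3 to 20 passed the adjusted p, 2 to 11 further motile cilium genes were called, and the median log2 fold change was 0.502 to 0.766. Over all genes 175 to 513 were then called higher and 351 to 1072 passed the adjusted p higher. The other alternatives (DESeq2, other size factors, other filters, robust dispersion) gave 9 to 13 called genes and 12 to 19 past the adjusted p, and in the alternatives run 0 were called lower. With the covariate the log2 fold change changed sign for Mcidas (0.148), Dnah9 (-0.0263), Dnah1 (-0.0733), Dnah2 (-0.0863), Dnah7a (-0.248), Dnah12 (-0.329), Zmynd10 (-0.326), Ccdc40 (-0.0946), Spag6l (-0.00587), Spag17 (-0.228), Ccdc153 (-0.180) and Tmem212 (-0.177). Dnah5 changed sign with library size alone (0.00305). With 1 mouse left out, Dnah5 ranged from -0.0971 to 0.0699, Dnah1 from -0.0446 to 0.0994, Dnah7a from -0.100 to 0.140 and Ccdc39 from -0.00409 to 0.191. Of 661 values of single genes compared, 580 kept sign and call, 47 lost a call, 10 gained one and 24 changed sign. Mcidas and Tekt4 had the lowest total counts of the 39 genes.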

Other observations

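Microglial genes were higher as well: of 7, 5 passed the adjusted p and 1 was called, with log2 fold changes of 0.16 to 1.296. Over all tested genes 5.22% passed the adjusted p as higher and 2.17% were called higher. C1qa, a complement component, and Csf1r, the receptor for colony stimulating factor, rose by 1.296 and 0.55 on the log2 scale (adjusted p = 0.00761 and 0.00965, edgeR's quasi-likelihood test). Of 7 meningeal fibroblast genes, Igf2 alone passed the adjusted p. Igf2, a growth factor gene expressed in leptomeninges and choroid plexus, was at 2.83, 2.97, 5.40, 1.51 and 2.73 CPM in void replicates 4, 5, 9, 10 and 11 and at 12.4, 8.64, 6.62, 9.19 and 12.9 CPM in DHT replicates 1, 2, 3, 5 and 6. It rose by 1.68 (SE 0.28, adjusted p = 0.00931). Col1a2 and Col1a1, next by p, had log2 fold changes of 0.30 and -0.35 (adjusted p = 0.595 and 0.625).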
